A study of Mus musculus with 18 samples.

Results

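Nuclear receptors are transcription factors whose activity is set by small lipophilic ligands such as glucocorticoids and thyroid hormone, or, for orphan members, by their own level and their partners. In the embryonic forebrain several of them are known as markers of neuron position and type, so their levels describe which neurons are present as well as what those neurons transcribe. The genes described here were 10 nuclear receptors chosen by symbol, Nr2f1, Nr2f2, Nr4a2, Nr4a3, Rora, Rorb, Esrrg, Nr3c1, Nr3c2 and Thra, and all 10 were found among the 55335 genes counted. Nr2f1, Nr4a2, Rora and Rorb were the receptors called between genotypes, in the main fit or in a fit blocked by replicate number. On mm10, by the GENCODE annotation, Nr2f1 lies at chr13:78188973-78199757 and Nr4a2 at chr2:57106830-57124003, both on the minus strand. Rora lies at chr9:68653786-69388246 on the plus strand and Rorb at chr19:18930605-19111196 on the minus strand. Nr4a2 and Rorb overlap no other annotated gene. Nr2f1 overlaps A830082K12Rik and Rora overlaps Gm15511, each on the opposite strand.

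Single-nucleus RNA sequencing was done on flash-frozen forebrain of C57BL/6 mouse embryos at E14 that carried the MYT1L S710fsX frameshift on both (KO), 1 (Het) or neither (WT) allele, with no treatment. MYT1L is a zinc finger transcription factor of postmitotic neurons, and the comparison of genotypes asks how its loss alters developing neurons. There were 3 embryos per genotype, and each had 2 libraries, labelled run 1 and run 2, giving 18 libraries. The labels do not say what a run is, and the paper states that the assay was not repeated at this age. The embryos came from crosses of heterozygous parents, and the allele was present in every cell, not in neurons alone.

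After filtering, 192850 nuclei remained with a median of 2570 unique molecular identifiers (UMIs, which count captured RNA molecules). They fell into 46 clusters, of which 32 were neuronal and 30 held at least 20 nuclei in every embryo. Of those 30, 10 were called excitatory neuron-like, 13 inhibitory neuron-like and 1 Cajal-Retzius-like from marker genes, and 6 expressed neuron genes but carried no class name. Clusters are called by their leading genes. The genotype tag read WT for every run 1 library, against the titles, and the titles were used. WT replicate 3 was the only embryo with high Xist and low Uty, the pattern of a female, in both runs. By these genes sex was not balanced between genotypes, and no sex term was fitted. Across libraries 1841 barcodes were kept more than once, 1690 of them in libraries of different embryos. Levels are CPM, the counts of a gene relative to all counts summed over a group of nuclei in 1 embryo on the usual CPM scale, given as mean ± SD over embryos, and they are compared between groups of nuclei for 1 gene at a time.

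Myt1l, the targeted gene, was still counted in KO nuclei, so its presence does not check the labels. In excitatory neuron-like nuclei it was 1925, 2191 and 2097 CPM in the WT embryos, 2175, 2401 and 2338 CPM in Het and 2414, 2689 and 2467 CPM in KO. The KO values lay above all WT values, with a log2 fold change of 0.31 ± 0.07 (SE) that missed the threshold in this class (edgeR adjusted p = 0.0877, and 0.000204 in a fit blocked by replicate number). By title, run 1 inhibitory neuron-like nuclei held 1592, 1686 and 1660 CPM in WT and 2087, 1868 and 1816 CPM in KO. These did not overlap, while in the excitatory class the run 1 values of WT and KO did.

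The COUP transcription factors Nr2f1 and Nr2f2, which pattern the cortex and mark interneurons of caudal origin, shared several of their highest clusters. Nr2f1 was highest in the excitatory neuron-like cluster led by Tfap2d and Cxcl12, where the 9 embryos spanned 773 to 950 CPM with a median of 843 CPM. The unnamed Sim1 and Tafa1 cluster followed at 666 ± 73.2 CPM, and its highest embryo, at 776 CPM, overlapped the first. Nr2f1 was lowest in the septal-like Prdm12 cluster, at 20.8 ± 9.52 CPM.

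Nr2f2 was highest in that same Sim1 and Tafa1 cluster, from 592 to 923 CPM with a median of 764 CPM, and every embryo there lay above every embryo of the next cluster. The next was the Cajal-Retzius-like cluster, at 479 ± 74.9 CPM. The caudal ganglionic eminence interneuron-like cluster led by Prox1os and Pdzrn3 followed these for both genes, at 576 ± 45.04 CPM for Nr2f1 and 417 ± 42.9 CPM for Nr2f2. Nr2f2 was lowest in the Gbx1 cluster of medial ganglionic eminence interneuron-like nuclei, at 12.6 ± 3.93 CPM. Across the 30 clusters the genes with the pattern most like these were A830082K12Rik for Nr2f1 (Pearson r = 0.95 on log2 CPM) and B130024G19Rik for Nr2f2 (r = 0.98). Each overlaps that receptor gene on the opposite strand, and since it is not stated that strand was used in counting, reads of the overlapping genes may not be told apart. Neither was left out of clustering, and B130024G19Rik is also a leading gene of the Sim1 and Tafa1 cluster. The height and separation of Nr2f2 in that cluster may thus not be independent of how the clusters were made.

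Nr4a2 and Nr4a3 are orphan receptors induced by neuronal activity, and Nr4a2 also marks subplate and claustral neurons. Nr4a2 was concentrated in 1 excitatory neuron-like cluster, led by Il1rapl2, Unc13c and Chrm2, from 237 to 386 CPM with a median of 263 CPM. The next cluster, led by Gbx1 and Pde3a, reached 28.0 ± 9.41 CPM, and no embryo of it came near the first. In the Drd2 cluster, called indirect-pathway striatal-like, Nr4a2 was lowest at 1.15 ± 0.996 CPM. Radial glia-like nuclei, which are progenitors, held 62.3 ± 4.70 CPM.

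Nr4a3 had another distribution. It was highest in the excitatory neuron-like cluster led by Slit3, from 149 to 197 CPM with a median of 164 CPM, followed by the hippocampal and entorhinal-like Bmp3 cluster at 144 ± 17.0 CPM and the deep-layer-like Abca8a cluster at 112 ± 17.5 CPM. The ranges of neighbours in this order overlapped. The subtype name of the Bmp3 cluster rested on Man1a, Cdh13 and Dcc alone. In a clustering that kept the receptor genes no cluster carried that name. In the Il1rapl2 cluster Nr4a3 was 25.3 CPM on average, and it was lowest in the unnamed Pappa2 cluster, at 1.23 ± 1.47 CPM. The genes most like it in pattern were Lmo7, Slc44a1 and Lrrtm1 (r = 0.88 each), while those of Nr4a2 were less close (Gpd2, r = 0.74, Col24a1, r = 0.72, and Stum, r = 0.71).

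**Figure D1:**
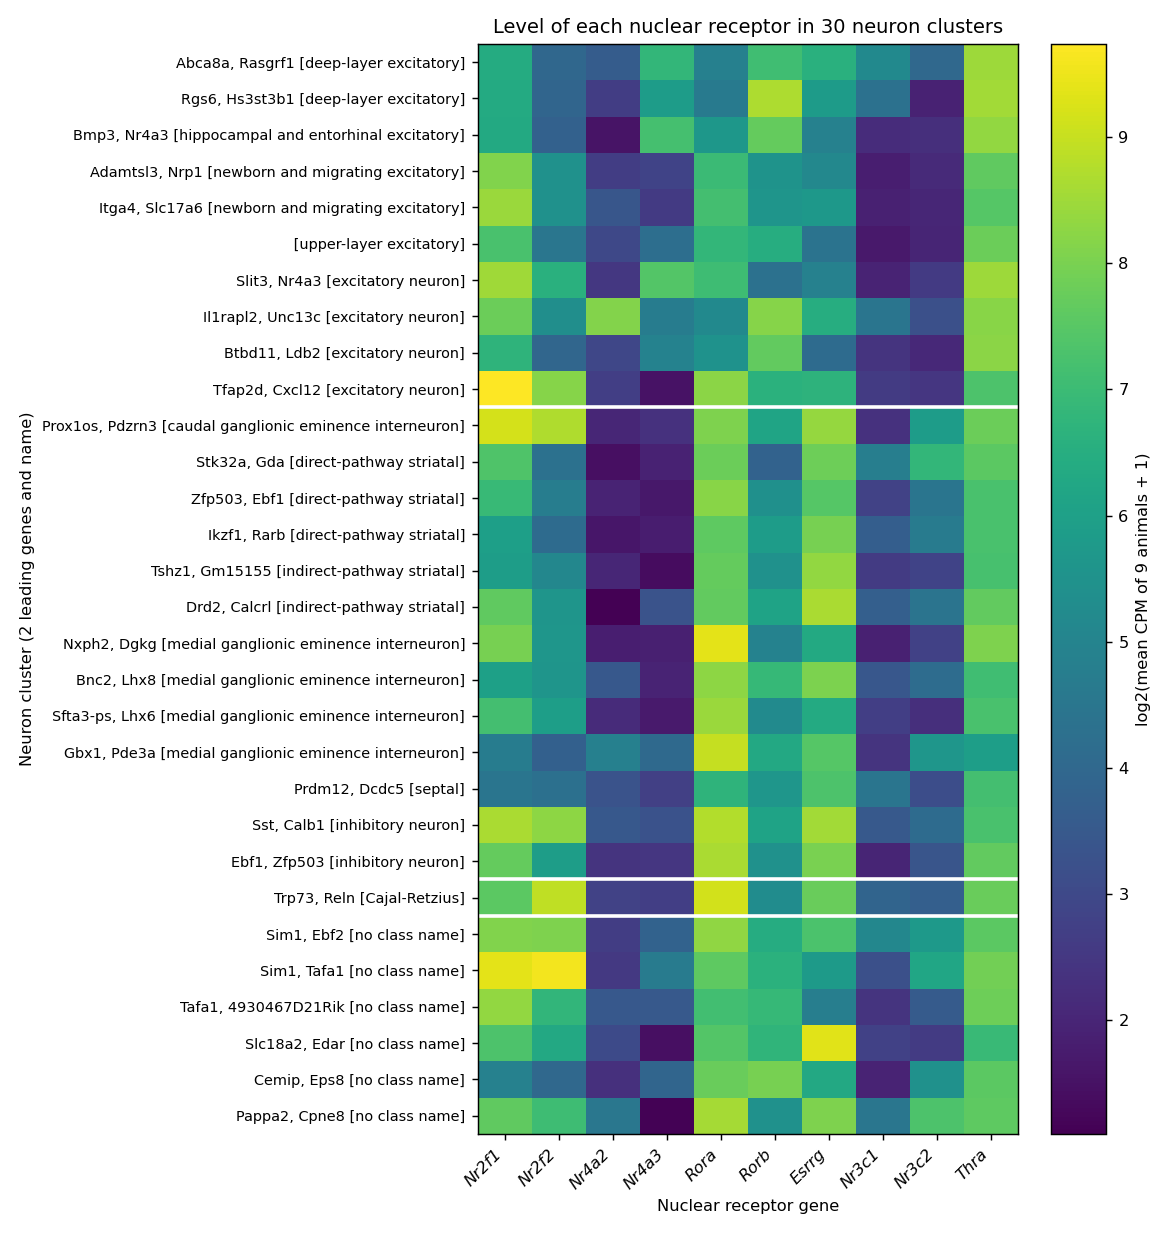
Mean level of each of the 10 receptors (columns) in 30 neuron clusters (rows, named by 2 leading genes with the marker-based name in brackets, or in 1 row by that name alone), as log2(mean CPM of 9 embryos + 1), with white lines between classes. Nr4a2 is bright in the Il1rapl2 row alone, Rora and Esrrg have higher medians over the inhibitory than over the excitatory rows, and Thra has no row under 60.4 CPM.

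Rora and Rorb, retinoic acid receptor-related orphan receptors, were highest in different classes of neuron. Rora had a median over clusters of 292 CPM among the 13 inhibitory neuron-like and 81.3 CPM among the 10 excitatory neuron-like clusters. It was highest in the medial ganglionic eminence interneuron-like Nxph2 and Dgkg cluster, from 586 to 778 CPM with a median of 649 CPM, and the Cajal-Retzius-like cluster, at 570 ± 82.9 CPM, overlapped it. Its lowest level, 23.6 ± 4.34 CPM, was in the deep-layer-like Rgs6 cluster.

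That Rgs6 cluster was the highest for Rorb, which marks layer 4 later in life, from 314 to 476 CPM with a median of 411 CPM. The Il1rapl2 cluster followed at 286 ± 40.3 CPM, and overlapped it. Rorb had a median of 117 CPM over the excitatory and 48.6 CPM over the inhibitory neuron-like clusters. It was lowest in the direct-pathway striatal-like Stk32a cluster, at 13.2 ± 7.86 CPM. A diencephalic neuron-like cluster, drawn from Het replicate 1 alone, held 1807 CPM of Rora and is left out of these orders.

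Esrrg, an orphan receptor of energy metabolism, was also mostly inhibitory, with a median of 247 CPM over the inhibitory against 43.0 CPM over the excitatory neuron-like clusters. It was highest in the unnamed Slc18a2 and Edar cluster, where embryos ranged widely from 407 to 899 CPM with a median of 633 CPM. The Drd2 cluster followed at 401 ± 68.4 CPM and overlapped it. The lowest level, 16.2 ± 2.72 CPM, was in the Btbd11 cluster.

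Nr3c1, the glucocorticoid receptor, was highest in the deep-layer-like Abca8a cluster, from 22.6 to 43.8 CPM with a median of 36.8 CPM. In run 1 alone it was highest in the unnamed Sim1 and Ebf2 cluster, at 36.2 CPM, and it was the only receptor whose highest cluster differed between the runs. Nr3c2, the mineralocorticoid receptor, was highest in the unnamed Pappa2 cluster, from 96.9 to 306 CPM with a median of 140 CPM, and next in the Stk32a cluster, at 112 ± 21.8 CPM, and lowest in the Rgs6 cluster, at 2.81 ± 0.824 CPM. For both genes neighbouring clusters at the top of the order overlapped. Radial glia-like nuclei held 48.3 ± 5.72 CPM of Nr3c1, above the mean of every neuron cluster.

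Thra, the thyroid hormone receptor alpha gene, varied least, since its highest cluster was 1.94 times the median cluster against 52.0 times for Nr4a2. It was highest in the Rgs6 cluster at 374 ± 16.4 CPM and lowest in the Gbx1 cluster at 60.4 ± 10.2 CPM. Thra overlaps Nr1d1 and Rora overlaps Gm15511 on the opposite strand, so their counts are uncertain in the same way as those of Nr2f1 and Nr2f2. Esrrg overlaps 4 genes and Nr3c2 overlaps 3, with 1 of them on the same strand in each case (Gm38315 and Gm23260), so their counts are uncertain too.

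KO and Het embryos were compared with WT by edgeR's quasi-likelihood test on counts summed per embryo, in 5 classes and 30 neuron clusters. A gene was called at a Benjamini-Hochberg adjusted p under 0.05 over all genes tested in that group of nuclei, with a log2 fold change beyond 0.2. As same-numbered embryos deviated together, a second fit took the replicate number as a block, and it is given where it changed a call.

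The level of a gene set how often it could be tested. Of 30 clusters, Nr4a2 passed the filter on low counts in 13, Nr4a3 in 14, Nr3c1 in 15, Nr3c2 in 17, Nr2f2 and Rorb in 29, and the other members in 30.

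Of the 10 receptors only Nr4a2 was called in the classes, 1 of 49 KO tests (0.2% of all gene tests there), in excitatory neuron-like nuclei of KO embryos, where 0.797% of all genes were called. Nr4a2 was 24.3, 22.4 and 25.0 CPM in WT, 18.5, 16.2 and 20.5 CPM in Het and 16.6, 13.1 and 16.5 CPM in KO. The KO and Het embryos all lay below the lowest WT embryo. The KO log2 fold change was -0.61 ± 0.10 (edgeR adjusted p = 0.0155, and 7.08e-05 with the block). The Het change of -0.36 ± 0.10 was not called (edgeR adjusted p = 0.998, and 0.106 with the block).

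The 2 runs differed for Nr4a2. In run 2 the WT embryos held 26.4, 25.7 and 28.2 CPM and the KO embryos 18.1, 14.2 and 17.5 CPM, a log2 fold change of -0.67 ± 0.11 (edgeR adjusted p = 0.0141). In run 1 the WT embryos held 17.8, 7.23 and 12.1 CPM and the KO embryos 13.2, 9.64 and 12.6 CPM, so that the groups overlapped, and the change was -0.04 ± 0.27 (edgeR adjusted p = 0.994). Nr4a2 was lower in run 1 (11.6 ± 3.13 CPM over 9 embryos) than in run 2 (21.6 ± 4.83 CPM), and the share of UMIs from run 1, given with Rora, differed between embryos. In this class the summed level of radial glia markers, given there too, was lower in every KO than in every WT embryo. In run 2 alone KO replicate 1, at 240.01 CPM, lay above WT replicate 3, at 238 CPM. The other KO embryos held 215 and 232 CPM there, and the other WT embryos 268 and 266 CPM. Nr4a2 was higher in radial glia-like nuclei, and the part of the markers in its change was not tested. The call was also lost when WT replicate 1, 2 or 3 or KO replicate 2 was left out, with log2 fold changes of -0.62, -0.64, -0.58 and -0.52 and edgeR adjusted p-values of 0.0526, 0.0520, 0.0722 and 0.0769.

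Most of this RNA came from 1 cluster. The Il1rapl2 cluster gave between 57.2% and 76.5% of the Nr4a2 counts of excitatory neuron-like nuclei in the 9 embryos, and between 31.6% and 72.1% in run 1 alone. Within it, Nr4a2 was 263, 313 and 386 CPM in WT and 263, 237 and 239 CPM in KO, a log2 fold change of -0.34 ± 0.13 that was not called (edgeR adjusted p = 0.200, and 0.0707 with the block). The runs went opposite ways within the cluster. In run 1, with 237 counts over all 9 embryos, Nr4a2 was 221, 154 and 226 CPM in WT and 280, 335 and 278 CPM in KO, all above WT. In run 2, with 1771 counts, it was 275, 322 and 405 CPM in WT and 258, 227 and 232 CPM in KO, all below WT. In the other excitatory neuron-like nuclei together the change was -0.14 ± 0.13 (edgeR adjusted p = 0.757). The class level thus holds both the level within the cluster and how many of its nuclei were captured. The cluster held 5.67, 3.71 and 3.84% of excitatory neuron-like nuclei in WT, 4.14, 2.97 and 4.15% in Het and 3.25, 2.44 and 3.29% in KO. Every KO embryo lay below every WT embryo, with a two-sided exact permutation p of 0.1, the smallest that 3 against 3 embryos allow. In run 1 alone the shares were 4.36, 1.26 and 2.04% in WT and 2.16, 1.31 and 2.38% in KO, which overlap (exact permutation p = 0.9). In run 2 alone they were 5.99, 4.09 and 4.16% in WT and 3.60, 2.67 and 3.48% in KO, with no overlap (exact permutation p = 0.1). Of the 10 leading genes of the cluster, Nr4a2 among them, 3 were called there between KO and WT, all higher in KO, with log2 fold changes of 0.84 for 9330158H04Rik, 0.57 for Unc13c and 0.38 for Chrm2, where 3.34% of all genes were called. Of the other 7, which were not called, 5 had estimates below 0, from -0.51 for Gm49678 to -0.07 for Hs3st2. In the whole excitatory class 8 of the 10 had estimates below 0. The 2 called were Nr4a2 and Plppr5 (-0.70 ± 0.14, edgeR adjusted p = 0.0367), where 0.797% of all genes were called. The 10 were picked as leading this cluster in the same data, so their class levels also hold its share of nuclei. The part of these genes in the share of nuclei was not tested.

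**Figure D2:**
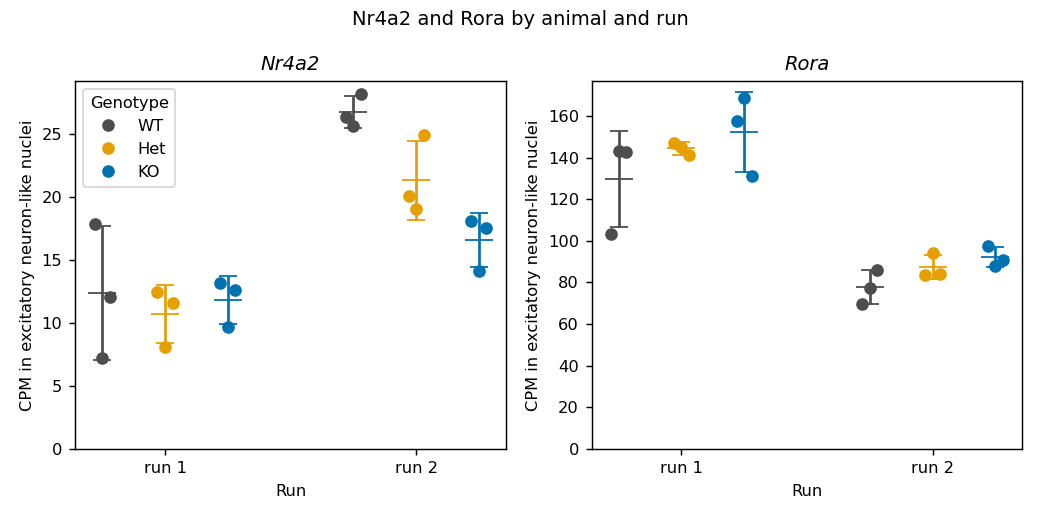
CPM of Nr4a2 (left) and Rora (right) in excitatory neuron-like nuclei in runs 1 and 2, 1 point per embryo, with mean and SD for WT, Het and KO (n = 3). In run 2 every KO embryo lies below every WT embryo for Nr4a2 and above every WT embryo for Rora, while in run 1 the genotypes overlap for both.

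Rora was not called in KO in the fit without the block, but was called with it. In excitatory neuron-like nuclei it was 78.0, 88.7 and 97.3 CPM in WT, 96.9, 107 and 103 CPM in Het and 116, 106 and 99.7 CPM in KO. Every KO embryo lay above every WT embryo, though WT replicate 3 came close to KO replicate 3. The log2 fold change was 0.31 ± 0.09 (edgeR adjusted p = 0.164, and 0.0202 with the block, where 5.18% of all genes were called). It was 0.24 ± 0.13 in run 1 alone and 0.27 ± 0.09 in run 2 alone, both below the value from the summed runs. Rora was higher in run 1 (142 ± 18.1 CPM) than in run 2 (85.7 ± 8.49 CPM), and run 1 gave 25.0, 17.4 and 19.6% of the UMIs of this class in WT and 31.04, 22.8 and 21.9% in KO. The part of this imbalance in the summed value was not tested. Rora was also abundant in radial glia-like nuclei, at 659 ± 44.6 CPM, and the summed level of the 12 radial glia markers, none at 0, in excitatory neuron-like nuclei was 217 to 237 CPM in KO and 241 to 268 CPM in WT, with the mean of 3 of the 12 markers higher in KO. In run 2 alone the sums overlapped, at 215 to 240.01 CPM in KO and 238 to 268 CPM in WT, with 5 of the 12 higher in KO. Within radial glia-like nuclei the mean of all 12 was lower in KO. The part of these markers in the Rora change was not tested.

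Across the 30 clusters the log2 fold change of Rora in KO was above 0 in 26, with a median of 0.21 and a range from -0.30 to 0.63. The clusters come from the same embryos and are not independent. None passed without the block, and 5 did with it. These were the excitatory neuron-like Btbd11 cluster and 4 unnamed clusters, led by Sim1 and Ebf2, by Sim1 and Tafa1, by Tafa1 and 4930467D21Rik, and by Pappa2. In the Btbd11 cluster Rora was 26.4, 33.6 and 47.6 CPM in WT and 57.8, 55.01 and 53.6 CPM in KO, with no overlap, and the blocked log2 fold change was 0.60 ± 0.17 (edgeR adjusted p = 0.0295, with 5.42% of all genes called). In the Pappa2 cluster WT embryos held 208, 350 and 378 CPM and KO embryos 417, 438 and 496 CPM, a blocked change of 0.59 ± 0.12 (edgeR adjusted p = 0.0142, with 1.3% of all genes called). The shares of all genes called with the block were 0.332% in the Sim1 and Ebf2 cluster, 0.584% in the Sim1 and Tafa1 cluster and 4.72% in the Tafa1 and 4930467D21Rik cluster.

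**Figure D3:**
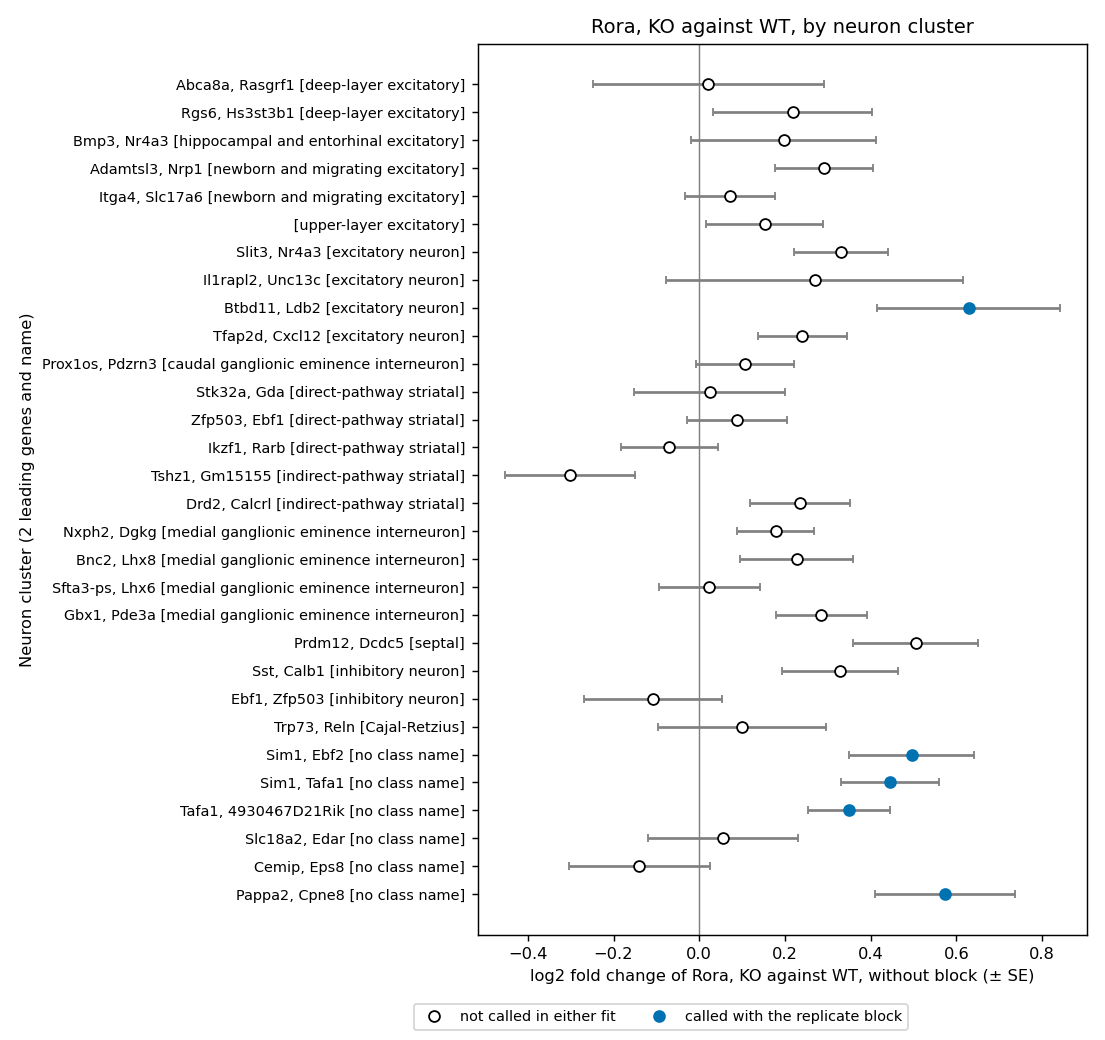
Log2 fold change of Rora in KO against WT (x axis, ± SE, fit without the block) in each of 30 neuron clusters (y axis), with filled points for clusters called with the replicate block. Values lie above 0 in 26 clusters, and the 5 filled points lie between 0.35 and 0.63.

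Rorb had estimates of opposite sign in the neuron classes, and neither passed without the block. Inhibitory neuron-like nuclei held 54.2, 45.2 and 50.4 CPM in WT and 78.1, 63.0 and 52.1 CPM in KO, which overlap. The log2 fold change was 0.40 ± 0.13 (edgeR adjusted p = 0.630, and 0.0264 with the block, where 1.15% of all genes were called). In excitatory neuron-like nuclei it was -0.22 ± 0.12 (edgeR adjusted p = 0.522). The difference of these effects, inhibitory minus excitatory, was 0.60 ± 0.19 (edgeR adjusted p = 0.466), and none of the 10 receptors passed this test, which called 0.101% of all genes.

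Within clusters none of the 188 KO tests of the receptors in the 24 named neuron clusters passed with edgeR (0.382% of all gene tests passed there) or DESeq2, while 25 (13.3%) had an unadjusted p under 0.05, against 7.34% of all gene tests there. With the block 3 passed, namely Rora in the Btbd11 cluster and both Nr2f1 and Rorb in the inhibitory neuron-like Bnc2 and Lhx8 cluster. Its subtype name, medial ganglionic eminence interneuron-like, rested on Nkx2-1, Lhx8 and Gbx1 alone. With the receptors kept in clustering, a cluster led by Chat shared the leading genes Lhx8, Slc10a4 and Gbx1 and carried no class name. Another cluster there, led by Bnc2 and Stk32a, was named direct-pathway striatal-like. How the nuclei behind these calls divide between the 2 was not tested. In the Bnc2 and Lhx8 cluster Nr2f1 was 67.9, 38.0 and 40.7 CPM in WT and 94.3, 70.6 and 70.0 CPM in KO (blocked log2 fold change 0.70 ± 0.15, edgeR adjusted p = 0.0268). Rorb was 121, 96.1 and 72.9 CPM in WT and 181, 134 and 113 CPM in KO (blocked log2 fold change 0.59 ± 0.12, edgeR adjusted p = 0.0276), with 0.353% of all genes called in that cluster. Within each replicate number KO was above WT for both genes. Of the 49 KO tests in the 6 unnamed clusters none passed with edgeR (0.575% of all gene tests) or DESeq2, with 9 (18.4%, against 8.02% of all gene tests) at an unadjusted p under 0.05 and 5 called with the block, 4 of them Rora. Over named and unnamed clusters, Rora gave 11 of the KO tests at an unadjusted p under 0.05 and Rorb 7, and no other receptor gave more than 4. These KO tests share embryos and are not independent, and the receptors were chosen with earlier results of these data known. In the unnamed Tafa1 and 4930467D21Rik cluster Nr4a2 fell with the block, from 16.7, 9.42 and 14.97 CPM in WT to 7.40, 7.32 and 5.53 CPM in KO (log2 fold change -1.03 ± 0.28, edgeR adjusted p = 0.0263, with 4.72% of all genes called).

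In Het embryos no receptor was called in any class or cluster with edgeR or DESeq2, with 2 of 49 class tests, 13 of 188 named cluster tests and 5 of 49 unnamed cluster tests at an unadjusted p under 0.05. These are 4.08%, 6.91% and 10.2% of the members' tests, against 2.66%, 3.63% and 3.79% of all gene tests. The tests share embryos and are not independent. Of all genes 0% were called in the classes and the unnamed clusters and 0.000854% in the named clusters. With the block Rorb alone passed, in the deep-layer-like Abca8a cluster, where WT held 166, 144 and 184 CPM and Het 105, 84.7 and 134 CPM (log2 fold change -0.61 ± 0.11, edgeR adjusted p = 0.0116, with 0.0508% of all genes called). In both neuron classes Nr2f1, Nr2f2, Nr4a3, Esrrg, Nr3c1, Nr3c2 and Thra had KO log2 fold changes between -0.14 and 0.31, none of them called. For the remaining estimates in inhibitory neuron-like nuclei, Nr4a2 was -0.25 ± 0.29 and Rora 0.18 ± 0.08 (edgeR adjusted p = 0.939 and 0.786).

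**Figure D4:**
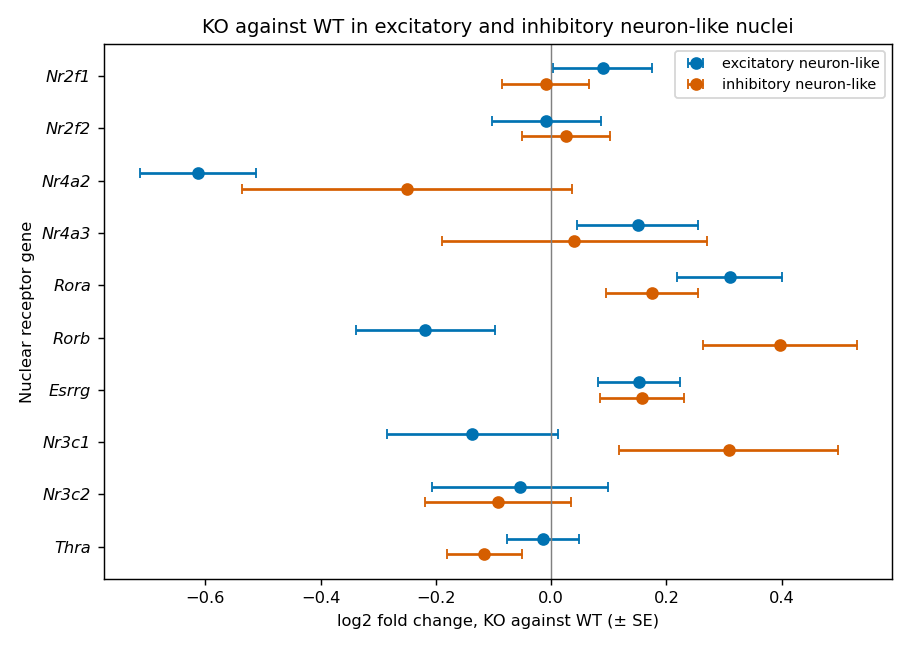
Log2 fold change of the 10 receptors in KO against WT (x axis, ± SE) in excitatory (blue) and inhibitory (orange) neuron-like nuclei. Nr4a2 in excitatory neuron-like nuclei, at -0.61, is the only point that passed without the block. Rorb, Nr3c1, Nr2f1 and Nr2f2 have their points on either side of 0.

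Genes that work with these receptors were taken from 3 lists. None of the other nuclear receptors was called in KO (32 of 39 tested in excitatory neuron-like nuclei, median log2 fold change -0.03 against -0.01 for all genes). Of 24 coregulators tested there, 1 fell, where 0.797% of all genes were called in either direction. This was Nrip1, a corepressor of ligand-bound receptors, at 57.6, 55.4 and 48.7 CPM in WT, 40.9, 42.9 and 43.4 CPM in Het and 29.7, 29.9 and 41.4 CPM in KO, a log2 fold change of -0.65 ± 0.11 (edgeR adjusted p = 0.0155). Nrip1 also fell in the Btbd11 cluster (-1.01 ± 0.14, edgeR adjusted p = 0.00045, with 2.48% of all genes called) and in the Rgs6 cluster (-0.55 ± 0.13, edgeR adjusted p = 0.0407, with 1.65% called).

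Of 19 hormone handling and hormone-responsive genes tested, Hr alone was called in excitatory neuron-like nuclei, where 0.797% of all genes were, and it fell. Hr encodes a corepressor that thyroid hormone induces, and it was 2.69, 2.27 and 2.83 CPM in WT and 0.959, 1.21 and 1.33 CPM in KO (log2 fold change -1.08 ± 0.19, edgeR adjusted p = 0.0219). Cyp26b1, which degrades retinoic acid, fell in the Drd2 cluster, from 108, 117 and 134 CPM in WT to 69.1, 52.9 and 53.4 CPM in KO (-1.06 ± 0.17, edgeR adjusted p = 0.0361, with 0.077% of all genes called). In the Il1rapl2 cluster the corepressor complex genes Ncor1 and Tbl1xr1 rose by 0.38 ± 0.10 and 0.51 ± 0.14 on the log2 scale (edgeR adjusted p = 0.0433 and 0.0468, with 3.34% of all genes called). Bcl11a fell in the Tafa1 and 4930467D21Rik cluster (-0.34 ± 0.09, edgeR adjusted p = 0.0426, with 2.42% called). In inhibitory neuron-like nuclei no gene of the 3 lists was called in KO, and 0.0484% of all genes were. In Het embryos no gene of the 3 lists was called in either neuron class.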

How the data were processed

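Nuclei of 18 libraries were barcoded by combinatorial indexing. The authors counted them with the ScaleRna pipeline on mm10 and deposited matrices of estimated counts, with 6.87 to 9.13% of entries not whole. No source used here gives the annotation release or strand use. The submitters' processing notes also name Seurat 4.3.0, DESeq2 1.38.3 and Scanpy 1.12.0. Here nuclei with 800 to 6000 UMIs, 300 to 3000 genes, at most 1% mitochondrial counts and log genes divided by log UMIs at 0.9 or above were kept, and the 5% with the highest Scrublet score in each library were removed as doublets. Leiden clusters (scanpy 1.11.5, 3000 variable genes, 50 components, 20 neighbours, resolution 2) were made without nuclear receptor genes, Myt1l and sex-linked genes. Other genes that overlap a receptor were not left out. The resolution and the naming rule were set after clusters were seen. Counts were summed per embryo over runs (9815480 to 22638900 per embryo in the excitatory and inhibitory neuron-like classes), rounded, and tested with edgeR 4.0.16 (filterByExpr, TMM, genotype as the model, Benjamini-Hochberg adjustment). The scripts were tested on simulated data.

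Same-numbered embryos deviated together (every correlation of same-numbered pairs was at least 0.10, against at most 0.03 for other pairs), so the numbers were taken to pair embryos. This pairing comes from the data, as the labels tie numbers to no litter. Deviations were from the mean of each genotype, so higher values in same-numbered pairs make those of other pairs lower. The blocked p-values rest on a pairing read from the same counts. Alternatives were DESeq2 1.42.0, RLE scaling, no filter, the replicate block, only the 2 genotypes compared, each run alone, leaving out each embryo, no upper limits, no doublet removal and clustering with the receptors kept. The genes named are the 10 receptors, Myt1l, genes of the 3 lists that were called, genes most like a receptor and leading genes of clusters. Genes that overlap a receptor, markers that gave a cluster its name, and Xist and Uty are named too. The receptors and lists were chosen with earlier results of these data known. Tests of unnamed neuronal clusters, and of excitatory neuron-like nuclei without the Il1rapl2 cluster, were chosen after seeing the data. The lowest level of Nr3c1 among the clusters is not reported here.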

Additional observations from a re-analysis of the deposited data

How the results depend on the processing

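The fall of Nr4a2 in excitatory neuron-like nuclei of KO embryos kept its direction in all 20 alternatives run, and passed in 14. The adjusted p-values, from edgeR or in the DESeq2 alternative from DESeq2, ranged from 8.07e-06 to 0.994. It missed the threshold in run 1 alone (-0.041), without the Il1rapl2 cluster (-0.14) and in 4 of 9 fits that left out 1 embryo, where the log2 fold change ranged from -0.67 to -0.52. The class count of 1 became 3 with no filter on low counts, 3 with the replicate block, 0 in run 1 alone and 0 to 1 when 1 embryo was left out. The block also raised the calls among all genes. They went from 0.797% to 5.18% in excitatory and from 0.0484% to 1.15% in inhibitory neuron-like nuclei. The count of 0 in named clusters became 4 with no filter and 4 with the replicate block, of which 3 were in KO and 1 in Het. It became 9 with the block when the 5 KO calls of unnamed clusters were added. The count of 0 for the difference between neuron classes became 1 with no filter and ranged from 0 to 1 when 1 embryo was left out, with 1 without KO replicate 3. With no filter Rora in excitatory (0.31) and Rorb in inhibitory (0.39) neuron-like nuclei were also called. The share of all genes called with no filter is not reported here, so those counts have no background beside them. The level of the highest cluster moved by over 1 SD for Nr2f1 (697 CPM in run 1, 923 CPM in run 2), Nr4a3 (140 CPM in run 1), Rora (756 CPM in run 1) and Thra (344 CPM in run 1). The cause was not tested. The replicate block changed no call of a receptor beyond those given here and in the results.

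Some of the uncalled estimates changed sign, among them several near 0 but also Nr4a2 in inhibitory neuron-like nuclei, at -0.25 in the main fit. In excitatory neuron-like nuclei Nr2f2 was 0.0066 in run 2 alone, 0.014 with no upper limits and 0.073 with the receptors kept in clustering, Nr3c1 was 0.13 and Thra 0.10 in run 1 alone, Nr3c2 was 0.025 in run 2 alone and 0.018 with the receptors kept, and Thra was 0.0043 with them kept. In inhibitory neuron-like nuclei Nr2f1 was 0.015 in run 2 alone and 0.023 with no upper limits, Nr2f2 was -0.11 in run 1 alone and -0.024 with the receptors kept, and Nr4a3 was -0.027 in run 1 alone. When 1 embryo was left out, the excitatory values ranged from -0.051 to 0.031 for Nr2f2 and from -0.058 to 0.037 for Thra, and the inhibitory values from -0.058 to 0.032 for Nr2f1, -0.025 to 0.088 for Nr2f2, -0.46 to 0.15 for Nr4a2 and -0.053 to 0.16 for Nr4a3.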
